A study of Mus musculus with 18 samples.

Results

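A set of 7 genes for recognising apoptotic cells was followed through the series. They are the TAM receptors Mertk, Axl and Tyro3, the receptor Timd4 and the bridging ligands Gas6, Pros1 and Mfge8. They were listed by symbol for what their proteins are known to do, by a rule that uses no measured value but was set with earlier results of these data known, and they are 7 of the 49315 genes counted in each library. All 7 were matched to Ensembl identifiers of the mouse GRCm38 annotation. The question was how Mertk compares with Axl and with the ligands across treatments and genotypes.

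The TAM receptors TYRO3, AXL and MERTK are receptor tyrosine kinases that do not bind a dying cell themselves. As a family, though not every receptor binds both, they bind the ligands GAS6 and protein S (Pros1). The vitamin K-dependent domains of these ligands hold the phosphatidylserine that apoptotic cells expose, and so a ligand bridges the corpse to the phagocyte. MERTK is known as the receptor of tolerogenic, resting macrophages and AXL as the receptor of inflamed ones, and both also restrain inflammatory signalling. MFG-E8 (Mfge8) bridges phosphatidylserine to integrins rather than to TAM kinases, and TIM-4 (Timd4) binds phosphatidylserine directly on some resident macrophages.

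Bone marrow-derived macrophages (BMDMs), grown from marrow in medium conditioned by L929 cells, were labelled WT or HDAC3 KO. In the study's text the WT cells come from HDAC3 f/f mice, which carry loxP sites in Hdac3, and the HDAC3 KO cells from M-HDAC3-/- mice, which carry these sites and a Cre recombinase driven by the myeloid gene Lyz2. Cells of either genotype were left untreated, cocultured for 45 min with non-apoptotic cells (NACs), or cocultured with apoptotic cells (ACs), then washed and kept for 5 h. Both kinds of prey came from the human leukemia line K562, and the ACs had received UVB for 15 min and rested for 2 h. Each of the 6 groups had 3 libraries labelled as biological replicates, and the methods name 3 animals for each group. Whether a group there is a genotype, so that one animal gave cells to several treatments, was not stated. Ages of the animals were not given for these cultures.

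Counts per library ran from 4704491 to 26421267, with a median of 16477929, and the smallest total belonged to untreated HDAC3 KO replicate 1. The level of Hdac3, the targeted gene, overlapped between genotypes: it lay between 3.38 and 48.8 CPM (counts scaled to library size) in WT libraries and between 4.66 and 74.6 CPM in HDAC3 KO libraries. Counts over the whole gene do not show whether the floxed exon was lost, so WT and HDAC3 KO stand for the labels. Summed macrophage markers (8 genes, among them Adgre1, Csf1r and Cd68) reached 5981 to 19820 CPM, and with ACs they stood apart by genotype, at 9196 to 11150 CPM in WT and 14830 to 16920 CPM in HDAC3 KO libraries. Dendritic cell markers summed to at most 2.73 CPM and B cell markers to at most 5.22 CPM. In bulk RNA, a change in the share of a cell type and a change in RNA per cell cannot be told apart.

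The promoters of Mertk, Axl and Gas6 are shown because these are the genes whose levels are contrasted. Each run covers 250 bases before the annotated start and the first 30 after it, 5′ to 3′ on the gene's strand, from RefSeq on GRCm38.p6. They lie at chr2:128698665-128698944 (plus strand), chr7:25788704-25788983 (minus strand) and chr8:13494506-13494785 (minus strand). Capitals mark GC boxes, GGGCGG on either strand.
Mertk: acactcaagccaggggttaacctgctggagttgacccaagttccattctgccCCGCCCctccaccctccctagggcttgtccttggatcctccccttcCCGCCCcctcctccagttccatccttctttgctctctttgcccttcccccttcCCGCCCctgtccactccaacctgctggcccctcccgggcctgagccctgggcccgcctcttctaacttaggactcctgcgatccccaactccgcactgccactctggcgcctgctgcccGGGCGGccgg
Axl: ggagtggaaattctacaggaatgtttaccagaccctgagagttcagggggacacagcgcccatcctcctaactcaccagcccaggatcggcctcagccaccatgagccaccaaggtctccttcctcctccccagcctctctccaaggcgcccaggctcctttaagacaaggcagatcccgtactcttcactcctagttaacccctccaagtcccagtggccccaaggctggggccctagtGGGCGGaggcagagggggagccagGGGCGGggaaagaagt
Gas6: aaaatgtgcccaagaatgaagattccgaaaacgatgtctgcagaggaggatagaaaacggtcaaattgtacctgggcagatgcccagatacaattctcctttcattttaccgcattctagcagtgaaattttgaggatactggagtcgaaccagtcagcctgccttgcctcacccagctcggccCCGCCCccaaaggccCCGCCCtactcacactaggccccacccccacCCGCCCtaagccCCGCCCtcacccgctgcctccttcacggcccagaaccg

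In windows of 300 bases, which reach 50 past the start, Mertk held 4 GC boxes, Axl 2 and Gas6 4. Tyro3 held 6, Pros1 5, Mfge8 4 and Timd4 0, and 35.6% of the 32817 promoters of the same length held at least one. GC content of the windows was 66.0% for Mertk, 60.3% for Axl and 58.3% for Gas6, beside a median of 52.7% over all promoters. The nuclear receptor half-site AGGTCA, read on both strands, was found only in Timd4 among the 7 windows (16.3% of all promoters hold it). The TATA box TATAAA, the E-box CACGTG and a DR4 pair of half-sites were found in none of the 7 windows, and 13.6%, 7.15% and 0.0152% of all promoters held them. A match of letters is a description and not a bound site.

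Per kilobase of transcript, the ligand genes Mfge8 and Gas6 stood highest and Tyro3 and Timd4 lowest. The median over the 18 libraries was 87.4 RPKM (CPM per kilobase of transcript) for Mfge8 and 78.6 RPKM for Gas6. Mertk and Axl were close to each other, with medians of 14.3 and 12.4 RPKM. Pros1 was lower at 1.31 RPKM, and Tyro3 and Timd4 were at 0.0784 and 0.0371 RPKM. The ranges of Mertk (6.33 to 38.2 RPKM) and Axl (3.55 to 72.7 RPKM) overlapped, so over all libraries neither receptor was set apart from the other by level.

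**Figure D1:**
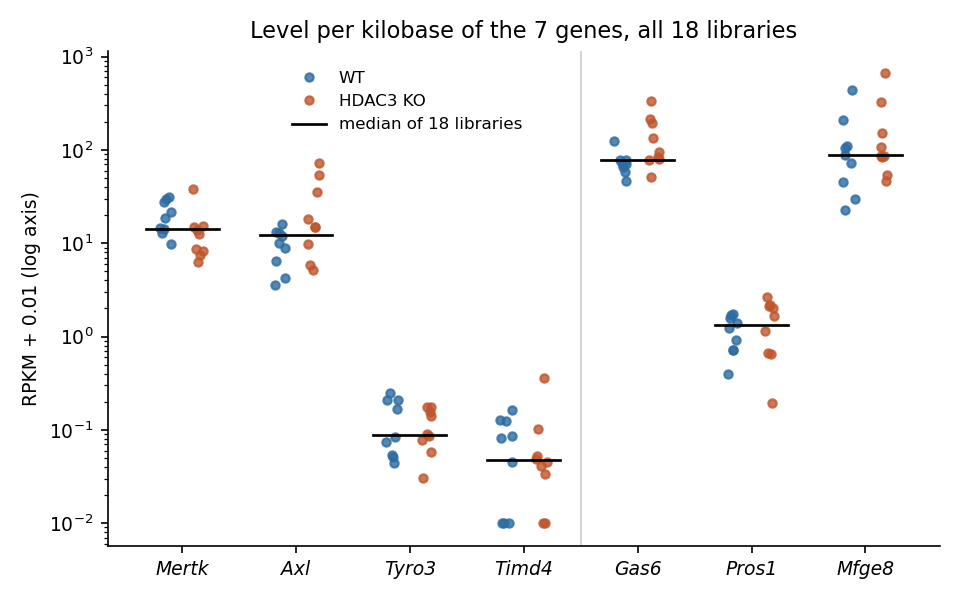
Level of each gene per kilobase, as RPKM plus 0.01 on a log axis, with 1 point per library (9 WT and 9 HDAC3 KO libraries per gene) and the median of the 18 libraries as a bar. The receptors are left of the grey line and the ligands right of it, and the medians of Gas6 and Mfge8 (78.6 and 87.4 RPKM) stand above those of Mertk and Axl while Tyro3 and Timd4 lie near the floor.

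Mertk, a TAM receptor known for the uptake of apoptotic cells by macrophages, lies on chromosome 2 (GRCm38 chr2:128698956-128802894, plus strand). Its 3 WT libraries with ACs read 134, 119 and 128 CPM, the tightest group of this gene. WT libraries with NACs read 42.7, 55.3 and 61.8 CPM and untreated WT libraries 81.6, 94.3 and 62.6 CPM. All WT libraries with ACs thus lay above all other WT libraries.

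In HDAC3 KO macrophages Mertk did not show this order. The libraries with ACs read 54.3, 65.4 and 27.4 CPM and those with NACs 59.4, 66.2 and 37.1 CPM, and the groups overlapped. Untreated HDAC3 KO libraries read 166, 35.4 and 32.6 CPM, so replicate 1, the shallowest library of the series, held the highest Mertk level of all and the other replicates were among the lowest. In the order of group means, WT with ACs came first at 127 ± 7.56 CPM (SD, n = 3) and HDAC3 KO with ACs last at 49.1 ± 19.5 CPM. WT with ACs did not overlap the next group, and each of the other neighbours in that order overlapped.

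With ACs, Mertk was lower in HDAC3 KO than in WT libraries by 1.41 ± 0.42 on the log2 scale (SE), a log2 fold change of -1.41, and missed the threshold in edgeR's quasi-likelihood test (adjusted p = 0.063). The groups did not overlap, and the two-sided exact permutation test gave 0.1, the smallest p that 3 against 3 allows. The Wald test called it (adjusted p = 0.0162), as did edgeR without HDAC3 KO replicate 2 (0.0211). With NACs the log2 fold change between genotypes was 0.05 ± 0.326, and untreated it was -0.18 ± 0.57. Leaving out untreated HDAC3 KO replicate 1 moved the untreated value to -1.41, with an adjusted p of 0.00249 in edgeR.

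ACs against NACs gave a Mertk log2 fold change of 1.29 ± 0.316 in WT libraries, where the unadjusted p was 0.00128 and the adjusted p 0.898 in edgeR. The same contrast gave -0.12 ± 0.396 in HDAC3 KO libraries. The difference between these contrasts, tested as an interaction, was -1.40 ± 0.504 and did not pass (edgeR adjusted p = 0.137). Against untreated cells, WT libraries with ACs gave 0.58 ± 0.309 (adjusted p = 0.405) and WT libraries with NACs -0.65 ± 0.372 (adjusted p = 0.201).

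The Mertk locus holds an antisense gene, Gm14011, with 0 to 59 counts per library, and Gm23172 with 0 to 3. Mertk itself had 381 to 1973 counts. Reads of overlapping genes cannot be told apart where strand was not used in counting.

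Axl, the TAM receptor that inflammatory stimuli raise in macrophages, lies on chromosome 7 (GRCm38 chr7:25757273-25788705, minus strand). Its HDAC3 KO libraries with ACs read 177, 75.8 and 272 CPM, and those with NACs 25.8, 49.8 and 74.7 CPM. Every HDAC3 KO library with ACs lay above every one with NACs, though the closest pair, 75.8 and 74.7 CPM, nearly met.

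WT libraries read 21.3, 81.3 and 64.3 CPM with ACs, 32.7, 51.1 and 45.2 CPM with NACs, and 17.8, 67.1 and 60.1 CPM untreated. These 3 WT groups overlapped throughout. Untreated HDAC3 KO libraries read 29.2, 92.2 and 366 CPM, the widest spread of any Axl group. Group means ran from 175 ± 98.3 CPM in HDAC3 KO with ACs to 43.0 ± 9.38 CPM in WT with NACs, and all neighbours in that order overlapped.

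Axl rose with ACs against NACs in HDAC3 KO macrophages, with a log2 fold change of 1.81 ± 0.454 (edgeR adjusted p = 0.0183). In WT macrophages this contrast was 0.40 ± 0.435 (adjusted p = 0.9), and the interaction was 1.43 ± 0.696 (adjusted p = 0.255), so a difference between genotypes in this contrast was not established. Without HDAC3 KO replicate 1 of the NAC libraries the adjusted p of the rise was 0.07, and without replicate 2 of them 0.0618. Without replicate 1 of the AC libraries it was 0.171 and without replicate 3 of them 0.111, and in the joint fit of 18 libraries 0.191.

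HDAC3 KO against WT gave Axl log2 fold changes of 1.57 ± 0.518 with ACs (adjusted p = 0.0861), 0.24 ± 0.357 with NACs and 1.61 ± 0.727 untreated (adjusted p = 0.126). None of these passed in edgeR, and in each the groups overlapped. With ACs, Axl passed in the Wald test (adjusted p = 0.0348), without the filter (0.0109) and without WT replicate 2 (0.0189) or HDAC3 KO replicate 2 (0.0123). Untreated, it passed in the Wald test (0.0436) and without the filter (0.026), and the value was 0.35 without HDAC3 KO replicate 3 and 2.07 without replicate 1 (adjusted p = 0.0453).

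Tyro3 (GRCm38 chr2:119797733-119818104, plus strand), the TAM receptor best known from the nervous system, had 2 to 27 counts per library, or 0.126 to 1.47 CPM. It passed the filter on low counts in some comparisons only, and was called in none of them. With ACs its log2 fold change between genotypes was -0.54 ± 0.849. Timd4 (GRCm38 chr11:46810800-46844332, plus strand) had 0 to 4 counts. It was at 0 in 5 of 18 libraries and at 3 counts or fewer in 15, which is the limit that a count of 0 allows, and it never passed the filter.

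**Figure D2:**
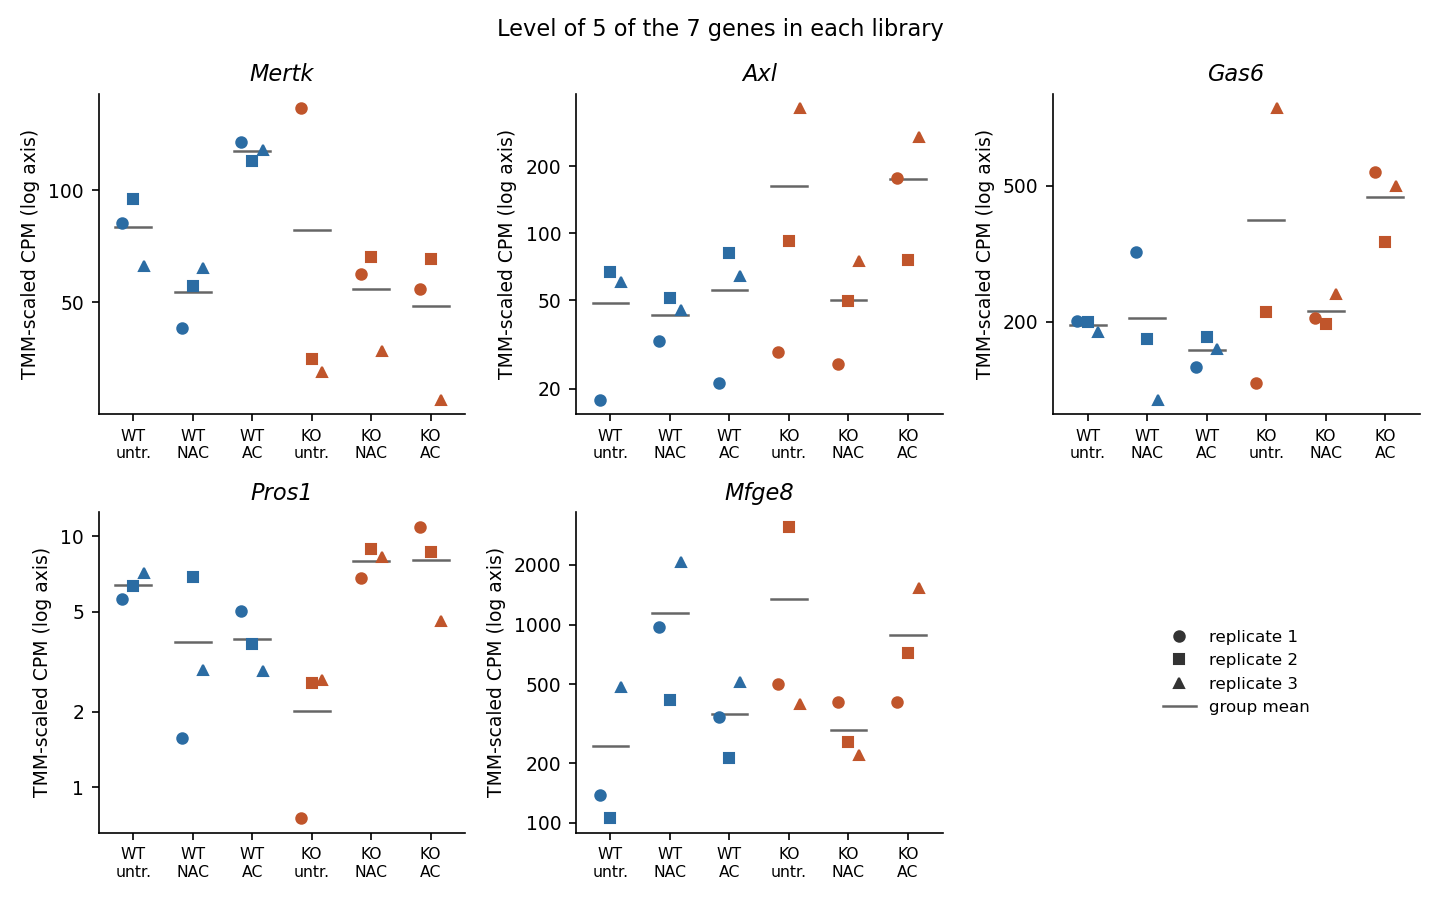
Levels of the 5 genes with enough counts, as TMM-scaled CPM on a log axis with a scale of its own in each panel, in WT (blue) and HDAC3 KO (orange) libraries, with 1 symbol per replicate and the group mean as a line. The 3 WT libraries with ACs sit at 119 to 134 CPM for Mertk, and the HDAC3 KO libraries with ACs sit at 341 to 548 CPM for Gas6.

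The balance of the receptors can be read within each library as the log2 ratio of Mertk to Axl, with 1 CPM added to each. WT libraries with ACs gave 2.60, 0.55 and 0.98, and HDAC3 KO libraries with ACs gave -1.69, -0.21 and -3.26. The ratio was thus higher in all 3 WT than in all 3 HDAC3 KO libraries with ACs. Per kilobase, Mertk stood above Axl in the 3 WT libraries (31.0, 27.5 and 29.5 against 4.23, 16.1 and 12.8 RPKM). In HDAC3 KO libraries it stood below Axl in replicates 1 and 3 (12.5 and 6.33 against 35.2 and 54.1 RPKM) and was level with it in replicate 2 (15.08 against 15.06 RPKM). The mean ratios were 1.38 ± 1.08 and -1.72 ± 1.53 (SD, n = 3).

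With NACs the ratio was 0.31 ± 0.174 in WT and 0.20 ± 1.1 in HDAC3 KO libraries, and the groups overlapped. Untreated WT libraries gave 0.89 ± 1.09. Untreated HDAC3 KO libraries gave 2.47, -1.36 and -3.45, of which the last is the lowest ratio of the series. A ratio of genes picked with earlier results known is a description, and no test was made of it.

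Against Gas6, the log2 ratio of Mertk was -0.37 ± 0.23 in WT and -3.27 ± 0.888 in HDAC3 KO libraries with ACs, without overlap. With NACs it was -1.82 ± 0.986 and -2.0 ± 0.589, with overlap. The Axl to Gas6 ratio moved less between genotypes with ACs, at -1.74 ± 0.865 in WT and -1.55 ± 0.642 in HDAC3 KO libraries. Across the 18 libraries Pearson's r on log2(CPM + 1) was 0.774 between Axl and Gas6, -0.58 between Mertk and Axl and -0.661 between Mertk and Gas6. These points share libraries, depth and base composition, so the coefficients are descriptions only.

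**Figure D3:**
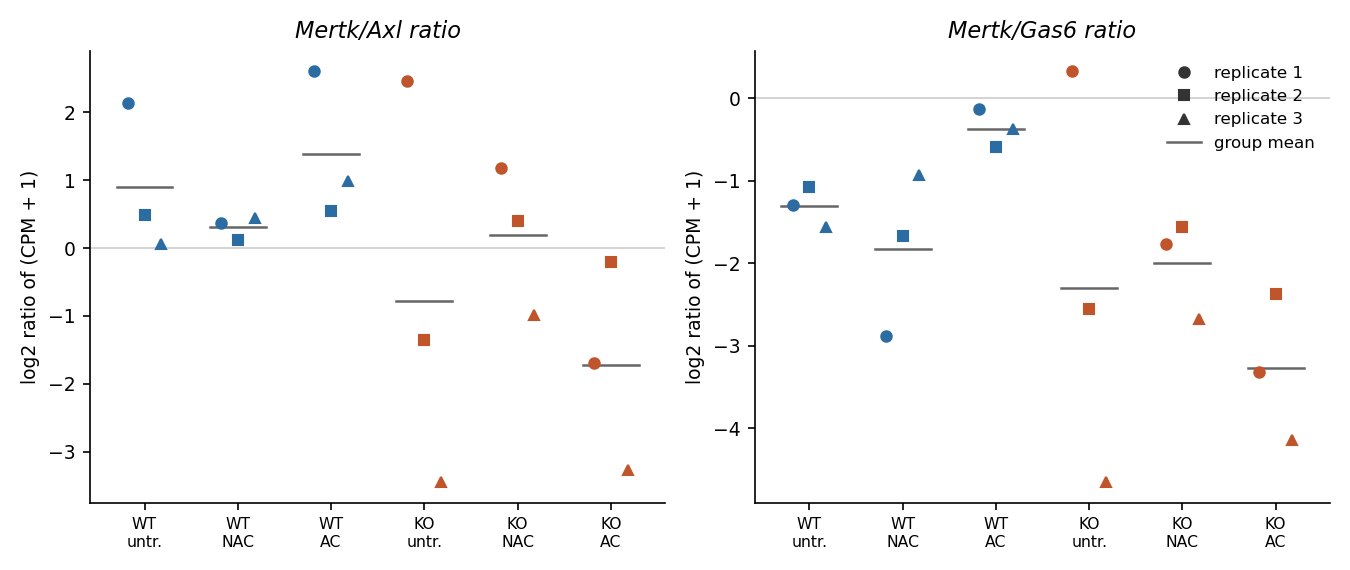
Log2 ratio of Mertk to Axl (left) and of Mertk to Gas6 (right) in each library, from CPM plus 1, with 1 symbol per replicate and the group mean as a line; the grey line marks equal CPM, which is not equal level per kilobase since the transcripts differ in length. With ACs the WT libraries lie at 0.55 to 2.60 and the HDAC3 KO libraries at -3.26 to -0.21 for Mertk to Axl.

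Gas6, the ligand of all 3 TAM kinases, lies on chromosome 8 (GRCm38 chr8:13465374-13494490, minus strand). HDAC3 KO libraries with ACs read 548, 341 and 501 CPM, and WT libraries with ACs 148, 181 and 166 CPM. Every HDAC3 KO library with ACs therefore held more Gas6 than any WT library of any treatment, the highest of which was 320 CPM.

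Gas6 was higher in HDAC3 KO than in WT macrophages with ACs, with a log2 fold change of 1.43 ± 0.394 (edgeR adjusted p = 0.0486). It was the only one of the 7 genes that passed in this comparison, and it passed narrowly. The call was lost without WT replicate 1 (adjusted p = 0.106), 2 (0.0747) or 3 (0.181) and without HDAC3 KO replicate 1 (0.313) or 3 (0.0558) of the AC libraries. It was also lost in the joint fit of 18 libraries (0.0685) and with the replicate number as a block (0.0991). Without HDAC3 KO replicate 2 the adjusted p was 0.0176, and the log2 fold change stayed between 1.35 and 1.65 in all 6 such fits. The macrophage marker sum also stood apart between these groups. By edgeR 0 of its 8 genes were called, beside 3.75% of all genes. The part of this sum in the Gas6 and Mertk differences was not tested.

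With NACs, Gas6 read 205, 197 and 242 CPM in HDAC3 KO and 320, 178 and 118 CPM in WT libraries, a log2 fold change of 0.10 ± 0.355. Untreated, it read 132, 213 and 845 CPM in HDAC3 KO and 201, 200 and 186 CPM in WT libraries, a log2 fold change of 0.87 ± 0.569. The untreated value rests on the 845 CPM of replicate 3, and without that library it was -0.21, while without replicate 1 it was 1.25 with an adjusted p of 0.0076. ACs against NACs gave 1.12 ± 0.376 in HDAC3 KO (adjusted p = 0.0625, no overlap) and -0.28 ± 0.381 in WT libraries. The HDAC3 KO value passed in the Wald test (adjusted p = 0.0187) and without AC replicate 2 (0.00823), and the interaction was 1.43 ± 0.52 (adjusted p = 0.14).

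Mfge8, the bridge to integrins, lies on chromosome 7 (GRCm38 chr7:79133768-79149060, minus strand) and had the widest range of the 6 genes detected in all libraries, 29.5-fold from the lowest library to the highest. Untreated HDAC3 KO libraries read 501, 3115 and 396 CPM and untreated WT libraries 139, 106 and 487 CPM. With NACs the WT libraries read 971, 415 and 2061 CPM and the HDAC3 KO libraries 406, 255 and 220 CPM. With ACs the WT libraries read 343, 211 and 511 CPM and the HDAC3 KO libraries 406, 720 and 1534 CPM. By group mean, WT was the higher genotype with NACs, and HDAC3 KO the higher one untreated and with ACs, where the groups overlapped.

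Mfge8 rose in 2 comparisons: with NACs against untreated in WT macrophages, by a log2 fold change of 2.22 ± 0.567 (edgeR adjusted p = 0.0283), and with ACs against NACs in HDAC3 KO macrophages, by 1.60 ± 0.441 (adjusted p = 0.0278). In both the groups overlapped. With NACs against untreated in HDAC3 KO the value was -2.01 ± 0.726 and did not pass (adjusted p = 0.106), from means of 1337 CPM untreated and 294 CPM with NACs. It passed in the Wald test (0.015) and without the filter (0.000562), and was -0.43 without untreated replicate 2, the library at 3115 CPM. Between genotypes the values were -1.93 ± 0.472 with NACs (adjusted p = 0.0573), 2.5 ± 0.811 untreated (adjusted p = 0.0565) and 1.27 ± 0.484 with ACs (adjusted p = 0.121). The interaction of genotype with ACs or NACs was 3.29 ± 0.771 and just missed (adjusted p = 0.0582). It passed in the Wald test (0.00248), without the filter (2.47e-06) and without WT replicate 2 of the NAC libraries (0.0101) or HDAC3 KO replicate 2 of the AC libraries (0.0331). ACs against NACs in WT gave -1.66 ± 0.525 (adjusted p = 0.898).

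Single libraries weighed on these Mfge8 values. Between genotypes untreated, the value was 0.82 without HDAC3 KO replicate 2, the library at 3115 CPM, and 3.40 without WT replicate 3. With ACs it was 0.68 without HDAC3 KO replicate 3, and with NACs -1.14 without WT replicate 3. The NAC value passed in the Wald test (adjusted p = 0.00559), with DESeq2 size factors (0.0394), without the filter (0.000123), and without WT replicate 2 (0.00536) or HDAC3 KO replicate 1 (0.00259) or 3 (0.0314). The untreated value passed without the filter (0.000801) and with all 18 libraries (0.0411), and the AC value without the filter (0.0482). Over the settings other than leaving out a library, the untreated value ran from 1.03 to 2.58, and it did not pass in all of them.

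The NAC rise in WT was lost without untreated replicate 1 (adjusted p = 0.0919) or 2 (0.113) and without NAC replicate 1 (0.179) or 3 (0.106), in the Wald test (0.0542) and in the joint fit of 18 libraries (0.149). The AC rise in HDAC3 KO was lost without NAC replicate 2 (0.127) or 3 (0.0924) and without AC replicate 1 (0.125) or 3 (0.139), in limma-voom (0.0573) and in the joint fit (0.264).

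Pros1, which encodes protein S, lies on chromosome 16 (GRCm38 chr16:62854307-62929346, plus strand) and was the ligand of lowest level. Untreated HDAC3 KO libraries read 0.755, 2.61 and 2.69 CPM, below all 3 untreated WT libraries at 5.64, 6.36 and 7.14 CPM. HDAC3 KO libraries with NACs read 6.80, 8.86 and 8.25 CPM and those with ACs 10.9, 8.62 and 4.60 CPM, all above the untreated ones. WT libraries read 1.57, 6.86 and 2.92 CPM with NACs and 5.03, 3.71 and 2.92 CPM with ACs.

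Pros1 rose with NACs against untreated in HDAC3 KO macrophages, with a log2 fold change of 2.06 ± 0.479 (edgeR adjusted p = 0.0412). It was at 2.08 ± 0.616 with ACs against untreated (adjusted p = 0.311), and at -0.79 ± 0.371 in the same contrast in WT (adjusted p = 0.393). Between genotypes it gave -1.65 ± 0.529 untreated (adjusted p = 0.0551), 1.07 ± 0.458 with NACs (adjusted p = 0.168) and 1.01 ± 0.492 with ACs (adjusted p = 0.212). The untreated value passed in the Wald test (0.0265), in limma-voom (0.0468), with all 18 libraries (0.0302) and without HDAC3 KO replicate 1 (0.0148), and was -0.73 with the offset for GC content. The NAC value was 1.91 and passed without WT replicate 2 (adjusted p = 0.00916). The call with NACs was lost without untreated replicate 2 (0.0885) or 3 (0.0913) and without NAC replicate 1 (0.209), 2 (0.104) or 3 (0.153), and with DESeq2 size factors (0.0648). Pros1 had 3 to 284 counts per library, so its lowest values rest on few reads.

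Counted over the comparisons, few of the genes passed, and their shares can be read beside those of all genes. A gene was called at an edgeR adjusted p under 0.05. HDAC3 KO against WT with ACs called 1 of the 6 tested (Gas6), where 3.75% of all genes were called. With NACs it called 0 of 5 (0.864% of all genes), and untreated 0 of 5 (11.6% of all genes). At an unadjusted p under 0.05 there were 4 with ACs, 2 with NACs and 3 untreated. Over all genes, 2988 of 12304, 2891 of 11923 and 4499 of 12101 were under it. Of the genes followed, DESeq2's Wald test called 1 with NACs and 2 untreated, and limma-voom 0 and 1. The shares of all genes given above are those of edgeR and are no background for these 2 tests. Over all settings tried as alternatives, 0 to 575 of all genes were called with NACs and 0 to 3314 untreated. The counts over all genes rested on single libraries. With NACs 103 genes were called, against 3121 without WT replicate 2 and 0 without WT replicate 1. Untreated 1404 were called, against 5887 without HDAC3 KO replicate 1 and 0 without HDAC3 KO replicate 3. With ACs 461 were called, against 1693 without HDAC3 KO replicate 2 and 0 without HDAC3 KO replicate 1.

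ACs against NACs called 2 of 6 in HDAC3 KO (Axl and Mfge8, with 7.38% of all genes called) and 0 of 6 in WT (0% of all genes). In WT, edgeR gave 493 of 11844 genes an unadjusted p under 0.05, among them 2 of the 7, DESeq2's Wald test and limma-voom also called 0 genes, and edgeR called 47 without the filter and 1 without AC replicate 1. ACs against untreated called 0 of 5 in WT and 0 of 6 in HDAC3 KO (0% and 0% of all genes). Of the 7, 0 and 1 had an unadjusted p under 0.05, and 0 were called by DESeq2 or limma-voom. Pros1 had no Wald result in HDAC3 KO, so the 0 of the Wald test does not cover it there. Over all genes, 1551 of 12199 and 1761 of 12136 had an unadjusted p under 0.05, the Wald test called 5 and 15, limma-voom 0 and 0, and edgeR without the filter 13 and 30. In HDAC3 KO edgeR called 16 without untreated replicate 1, 3 without untreated replicate 2 and 8 without AC replicate 2. NACs against untreated called 1 of 5 in WT (Mfge8, 8.52% of all genes) and 1 of 6 in HDAC3 KO (Pros1, 6.54% of all genes). With 1 library left out, the calls over all genes ran from 0 to 3013 for ACs against NACs in HDAC3 KO (904 with all libraries, the ends without AC replicates 1 and 2). For NACs against untreated they ran from 21 to 4232 in WT (1015 with all, the ends without NAC replicates 1 and 2) and from 0 to 4441 in HDAC3 KO (794 with all, 4441 without untreated replicate 1).

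Neither interaction called any of the 6 tested: 0.0765% of all genes were called for ACs or NACs and 0% for ACs or untreated. At an unadjusted p under 0.05 there were 3 and 1, DESeq2's Wald test called 1 in each, and limma-voom 0. Over all genes, 2620 of 13076 had an unadjusted p under 0.05 for ACs or NACs. For ACs or untreated, 3187 of 13225 genes had an unadjusted p under 0.05, the Wald test called 1225 and limma-voom 0. Over all genes edgeR called 10 for ACs or NACs, with 3 to 762 over the other settings and 0 to 826 with 1 library left out (826 without HDAC3 KO replicate 2 of the AC libraries). For ACs or untreated edgeR called 0, but 140 without the filter, 471 without untreated WT replicate 3 and 1100 without HDAC3 KO replicate 3 of the AC libraries. The comparisons within a treatment or genotype share libraries and are not independent of each other.

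Groups that did not overlap were common among all genes tested, which bears on how the plots read. With ACs the genotypes did not overlap for 2 of 6 (Mertk and Gas6), beside 28.3% of all genes, with NACs for 1 of 5 (Mfge8), beside 27.0%, and untreated for 1 of 5 (Pros1), beside 40.9%. ACs and NACs did not overlap for 1 of 6 in WT (Mertk), beside 10.4%, and for 2 of 6 in HDAC3 KO (Axl and Gas6), beside 29.4%. ACs and untreated did not overlap for 3 of 5 in WT (Mertk, Gas6 and Pros1), beside 15.5%, and for 1 of 6 in HDAC3 KO (Pros1), beside 21.5%. NACs and untreated did not overlap for 1 of 5 in WT (Mertk), beside 29.7%, and for 2 of 6 in HDAC3 KO (Tyro3 and Pros1), beside 38.7%.

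**Figure D4:**
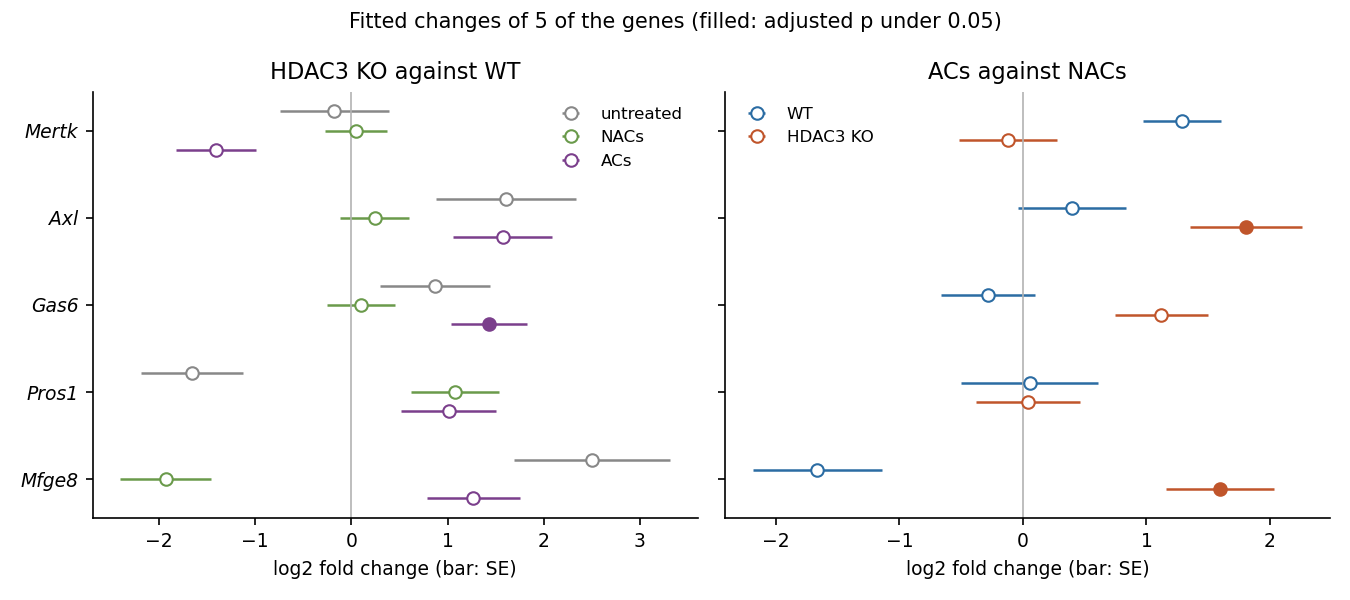
Log2 fold changes (points) with their SE (bars) for 5 genes, from edgeR, for HDAC3 KO against WT in each treatment (left) and ACs against NACs in each genotype (right); filled points have an adjusted p under 0.05. With ACs, Mertk lies at -1.41 while Axl, Gas6, Pros1 and Mfge8 lie between 1.01 and 1.57, and of these Gas6 is filled.

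Libraries also differed in the balance of GC-rich and GC-poor transcripts, and the 5 well-counted genes differ in GC content. Their transcripts hold 48.1% GC for Mertk, 54.2% for Axl, 56.6% for Gas6, 56.2% for Mfge8 and 43.4% for Pros1, beside a median of 49.8% over 13634 genes. A GC contrast was taken in each library, as the median log2 deviation of the 3409 genes with at least 54.6% GC minus that of the 3409 genes with at most 44.9%. It ran from -0.94 to -0.42 in untreated WT and from 0.38 to 1.11 in untreated HDAC3 KO libraries, so these groups stood apart. With NACs it ran from -0.24 to 0.76 in WT and from -0.68 to -0.31 in HDAC3 KO libraries, which also stood apart, in the other direction. With ACs the genotypes overlapped, from -0.62 to 0.61 in WT and from -0.42 to 0.79 in HDAC3 KO libraries. Contrasts of -0.62, -0.0048 and 0.61 in WT with ACs went with Mertk to Axl log2 ratios of 2.60, 0.98 and 0.55. Contrasts of -0.42, 0.05 and 0.79 in HDAC3 KO with ACs went with -0.21, -1.69 and -3.26. The ratio also fell with rising contrast within each untreated group, but not within the NAC groups. The part of GC content in the ratio was not tested.

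When edgeR was given offsets fitted to GC content and transcript length, Mertk with ACs was lower in HDAC3 KO by a log2 fold change of -1.81 ± 0.325 and passed (adjusted p = 0.00982), and Gas6 was at 1.38 ± 0.268 (adjusted p = 0.0134). Axl was at 1.16 ± 0.358 in that comparison (adjusted p = 0.0624). The rises of Axl (1.21, adjusted p = 0.0677) and Mfge8 (1.17, adjusted p = 0.0902) with ACs against NACs in HDAC3 KO were not called with the offset. The NAC calls of Mfge8 in WT (1.5, adjusted p = 0.196) and of Pros1 in HDAC3 KO (1.25, adjusted p = 0.199) were not called either. What sets the GC contrast of a library was not tested.

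**Figure D5:**
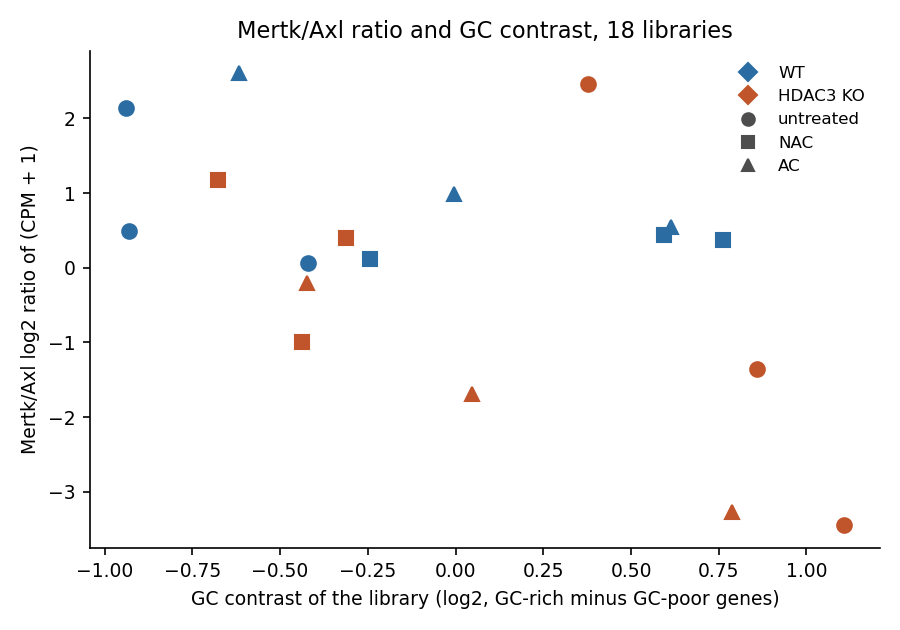
Log2 ratio of Mertk to Axl (vertical axis) against the GC contrast of the library (horizontal axis, log2), with 1 point per library, colour for genotype and shape for treatment. With ACs (triangles) the genotypes overlap along the GC contrast, and the HDAC3 KO libraries lie at -3.26 to -0.21 where the WT libraries lie at 0.55 to 2.60. Within the untreated and the AC groups of either genotype the ratio falls as the GC contrast rises. Within the NAC groups it does not follow this order.

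Markers of other cells that may grow in marrow cultures were read beside these results. Fibroblast and stromal markers (Col1a1, Col1a2, Col3a1, Dcn, Lum and Pdgfra) summed to 75.7 to 222 CPM in HDAC3 KO libraries with ACs and to 7.22 to 42.7 CPM in those with NACs, without overlap. In this comparison 2 of the 5 tested passed (Col1a2 with a change of 2.48 ± 0.592 on the log2 scale and an edgeR adjusted p of 0.0251, Col3a1 with 2.26 ± 0.554 and 0.0162). Over all genes 7.38% were called in it and 29.4% did not overlap. Lum was at 0 in 13 of 18 libraries. With ACs, WT libraries summed to 7.24 to 189 CPM and overlapped HDAC3 KO. Between genotypes 0 of 5 passed by edgeR, where 3.75% of all genes were called. In each WT group the library with the lowest Axl level also had the lowest sum of these markers. HDAC3 KO replicate 1 with NACs did so too (Axl 25.8 CPM, sum 7.22 CPM). Untreated HDAC3 KO replicate 1 had the lowest Axl level of its group (29.2 CPM) and the highest sum (102 CPM). HDAC3 KO replicate 3 with ACs had the highest Axl level of its group (272 CPM) and the lowest sum (75.7 CPM). Stromal cells express Axl, Gas6 and Mfge8 too, and their part in the Axl and Mfge8 rises was not tested. Untreated HDAC3 KO libraries summed to 67.6 to 102 CPM, above all those with NACs, beside the Pros1 rise, and their part in that result was not tested either.

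Granulocyte markers (8 genes) summed to 221 to 1262 CPM and overlapped between all groups compared. Elane, of this list, fell in HDAC3 KO against WT with ACs (log2 fold change -2.26 ± 0.567, adjusted p = 0.0424), while the rest of the 7 tested did not pass and ran from -1.39 (Mpo) to 1.27 (Ltf). Over all genes 3.75% were called there. Endothelial markers (4 genes) summed to 7.62 to 22.1 CPM with ACs and 4.57 to 6.80 CPM with NACs in HDAC3 KO libraries, where Kdr rose (1.72 ± 0.49, adjusted p = 0.0314), as did Ltf of the granulocyte list (1.37 ± 0.41, adjusted p = 0.0382). Of that list, S100a8, S100a9, Elane, Camp and Mpo had lower means with ACs than with NACs in HDAC3 KO, and Ngp a higher one. Mean S100a9 was 147 CPM with NACs and 68.2 CPM with ACs, and mean Ngp 286 and 332 CPM. Lyz2, a macrophage marker and the locus of the Cre, fell in untreated HDAC3 KO against WT libraries (-1.94 ± 0.55, adjusted p = 0.0425) and rose with NACs against untreated in HDAC3 KO (adjusted p = 0.0376). Each of these marker calls was lost in at least one fit without one library, with adjusted p up to 0.323. T cell markers (4 genes) summed to 3.78 to 109.5 CPM over the series and erythroid markers (8 genes) to 0.631 to 45.4 CPM.

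Other genes of the pathway were taken as 5 lists. Between genotypes with ACs, receptors and bridging proteins outside the TAM system had 2 of 18 tested called up and 0 down, beside 3.75% of all genes called, with a median log2 fold change of 0.69 beside -0.01 over all genes. These were Scarf1, a scavenger receptor for apoptotic cells (1.62 ± 0.414, adjusted p = 0.0411), and C1qc, a chain of complement C1q (1.48 ± 0.402, adjusted p = 0.0472). The other C1q chains, C1qa and C1qb, were not called.

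Nuclear receptors, partners and targets, which include the liver X receptors known to induce Mertk in macrophages, had 1 of 9 called up and 2 down, beside the same 3.75% (median -0.0033). Abcg1, a cholesterol exporter and liver X receptor target, rose (1.65 ± 0.385, adjusted p = 0.0303). Nr1h3, which encodes liver X receptor alpha, fell (-1.71 ± 0.449, adjusted p = 0.0445), as did its dimer partner Rxrb (-1.61 ± 0.431, adjusted p = 0.0456). All calls of these lists with ACs were lost in at least one fit without one library, with adjusted p up to 0.323.

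Ligands and processing enzymes (7 tested, median 0.45), engulfment signalling (11 tested, median 0.82) and the interferon and feedback genes (11 tested, median 0.41) had 0 called by edgeR with ACs. Their extremes were Furin, a convertase (1.31 ± 0.414, adjusted p = 0.0739), and the sheddase Adam10 (-0.41 ± 0.41). In engulfment signalling they were Dock2 (1.29 ± 0.439) and Rhog (-1.07 ± 0.426), an exchange factor and a small GTPase. In the interferon list they were Twist1 (1.43 ± 0.758) and Socs1 (-1.53 ± 0.584), which are known as brakes on cytokine signalling.

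With ACs against NACs in HDAC3 KO, the receptor and bridge list had 4 of 19 called up, beside 7.38% of all genes called (median 0.44 beside 0.09 over all genes). These were Itgb3, an integrin chain that binds MFG-E8 (1.75 ± 0.445, adjusted p = 0.0174), the bridge protein Cd5l (1.75 ± 0.443, adjusted p = 0.0181), Stab2 (1.88 ± 0.529, adjusted p = 0.0300) and C1qc (1.29 ± 0.386, adjusted p = 0.0382). Furin was the 1 of 7 called among ligands and processing enzymes (1.22 ± 0.378, adjusted p = 0.0448), Abcg1 the 1 of 9 among nuclear receptors and targets (1.41 ± 0.37, adjusted p = 0.02) and Twist1 the 1 of 11 in the interferon list (2.76 ± 0.791, adjusted p = 0.032). Twist1 was near the floor, with means of 0.169 CPM with NACs and 1.34 CPM with ACs in HDAC3 KO, so its value rests on few reads. Engulfment signalling had 0 of 11 called by edgeR, with Dock2 at 1.17 ± 0.406 and Crk at -0.80 ± 0.384. The medians of these 4 lists, in the order given, were 0.49, -0.31, 0.12 and 0.64. Each of these calls was also lost in at least one fit without one library, with adjusted p up to 0.2.

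In WT, ACs against NACs called 0 genes of the 5 lists by edgeR, as for all genes. The extremes were Adam17 (0.95 ± 0.405) and Lgals3 (-0.82 ± 0.354) among ligands and enzymes, and Havcr2 (0.52 ± 0.559) and Trem2 (-0.94 ± 0.341) among receptors. Engulfment signalling ran from Elmo1 (0.87 ± 0.356) to Vav1 (-0.26 ± 0.402), and nuclear receptors and targets from Abca1 (1.13 ± 0.405) to Rxra (-0.19 ± 0.391). Stat2 (1.39 ± 0.329) and Twist1 (-3.10 ± 0.836) bounded the interferon list. Mean Twist1 in WT was 4.335 ± 4.694 CPM with NACs (SD, n = 3) and 0.494 CPM with ACs, so its value rests on low and uneven levels. All of these log2 fold changes had adjusted p values of 0.898 or more.

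Genes whose levels ran most like those of the receptors and of Gas6 were ranked by Pearson's r on log2(CPM + 1) over the 18 libraries, among 13662 genes. For Mertk they were Knop1 (0.928), Mtif2 (0.896), Amt (0.893), Bptf (0.891) and Qrich1 (0.889). For Axl they were Mcm6 (0.931), Fam214b (0.929), Ptbp1 (0.916), Fads1 (0.913) and Slco2b1 (0.911). For Gas6 they were Dcaf8 (0.959), Rhbdf2 (0.959), Ube2q1 (0.957), Max (0.951) and Rundc1 (0.949). The 3 sets have no gene in common.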

How the data were processed

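RNA of 18 BMDM libraries in 6 groups was analysed from the counts per gene that the authors deposited, without normalization. The submitters' processing notes name Trimmomatic 0.36, STAR 2.5.2b, featureCounts of Subread 1.5.2 and GRCm38. Strand setting and annotation release were not given in the sources used here, and 44858 of the 49056 identifiers shared with GENCODE M21 had its bounds. The authors' own tests used DESeq2.

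For every comparison edgeR 4.0.16 (R 4.3.3) was run with the libraries concerned alone. Low genes were removed with filterByExpr (at least 10 counts, total at least 15), TMM factors were computed, and glmQLFit (robust) and glmQLFTest gave p values, adjusted over all genes tested by Benjamini-Hochberg with a threshold of 0.05. The p values measure the spread between the libraries of a group. CPM were TMM-scaled over 18 libraries, RPKM used the deposited length column, and log2 levels and ratios had 1 CPM added. Single levels had a two-sided exact permutation test.

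Alternatives were size factors or the Wald test from DESeq2 1.42.0, voom in limma 3.58.1, unfiltered genes, a joint fit of the 18 libraries, the replicate number as a block, offsets fitted to GC and length (mgcv 1.9.3) with and without that block, each library left out, and for ratios 0.1 CPM or library totals without TMM. Fits were run on simulated counts for the genotypes with ACs only, with the same spread for every gene and no GC bias. These counts did not cover the interactions, the joint fit or the uneven spread of the real libraries.

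All 7 genes were described. From each list, genes with an adjusted p under 0.05 were named (at most the 5 of smallest p), and otherwise the largest increase and decrease. The marker genes named with values were chosen after their values were seen. The genes and lists were chosen with earlier results of these data known. No protein sequences were used here.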

Additional observations from a re-analysis of the deposited data

Results flagged for a closer look

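Pros1 levels lay in opposite directions with ACs against untreated: all 3 WT libraries with ACs (2.92 to 5.03 CPM) lay below the untreated ones (5.64 to 7.14 CPM), and all 3 HDAC3 KO libraries with ACs (4.60 to 10.9 CPM) lay above theirs (0.755 to 2.69 CPM). The difference between these contrasts was 2.18 on log2 of mean CPM plus 1. As an interaction in edgeR it was 2.61 ± 0.687 and did not pass (adjusted p = 0.112), while it passed in the Wald test (2.60, adjusted p = 0.0123) and without HDAC3 KO replicate 3 of the AC libraries (2.90, adjusted p = 0.0416). With the GC and length offset in edgeR it was 1.81 (adjusted p = 0.171), and with the block added 1.84 (adjusted p = 0.219).

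Tyro3 levels lay in opposite directions with NACs against untreated: WT libraries read 0.458 to 1.24 CPM with NACs and 0.259 to 0.398 CPM untreated, and HDAC3 KO libraries 0.299 to 0.469 CPM with NACs and 0.503 to 1.02 CPM untreated. The difference between the contrasts was -0.97 on the same scale. It was not tested, and it rests on 2 to 20 counts per library.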

How the results depend on the processing

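The count of the 7 genes called moved with the setting. With DESeq2's Wald test it was 3 between genotypes with ACs, 1 with NACs, 2 untreated, 0 for NACs against untreated in WT and 2 in HDAC3 KO, and 1 in each interaction. With DESeq2 size factors it was 1 between genotypes with NACs and 0 for NACs against untreated in HDAC3 KO. With limma-voom it was 1 between genotypes untreated and 1 for ACs against NACs in HDAC3 KO. Without the filter it was 3, 1 and 2 between genotypes with ACs, with NACs and untreated, 1 for ACs against NACs in WT, 3 for NACs against untreated in HDAC3 KO and 1 in the interaction with ACs or NACs. With all 18 libraries in one fit it was 0 between genotypes with ACs, 2 untreated, 0 for ACs against NACs in HDAC3 KO and 0 for NACs against untreated in WT. With the GC and length offset it was 2 between genotypes with ACs, 0 for ACs against NACs in HDAC3 KO, and 0 for NACs against untreated in WT and in HDAC3 KO. The cause of these moves was not tested. Calls over all genes moved with the setting too, from 373 to 1373 between genotypes with ACs. With NACs they ran from 0 to 575 and untreated from 0 to 3314. Shares of all genes in each single setting are not given here, so these counts are not read as a result about the 7 genes.

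Pairing by replicate number was not stated, and in no pair of groups compared directly were all 3 correlations of same-numbered libraries over 0.1. HDAC3 KO with NACs and WT with ACs, which both enter the interaction with ACs or NACs, had 0.4862, 0.1768 and 0.2959, each library matching its own number best. With a replicate block the count was 0, 1 and 1 between genotypes with ACs, with NACs and untreated, 0 for NACs against untreated in HDAC3 KO and 1 in the interaction with ACs or NACs (Mfge8, 2.95, adjusted p = 0.0367). For ACs against untreated in WT, 53 genes were called with the block and 130 with the GC offset added. Untreated, the block called Pros1 (-1.81, adjusted p = 0.0463), and with NACs Mfge8 (-1.67, adjusted p = 0.0173). It lost Gas6 between genotypes with ACs (1.42, adjusted p = 0.0991) and Pros1 with NACs against untreated in HDAC3 KO (2.21, adjusted p = 0.0956). With the block and the GC offset together it was 2 between genotypes with ACs, 1 for ACs against NACs in HDAC3 KO, and 0 for NACs against untreated in either genotype.

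With 1 library left out the count ran from 0 to 3 between genotypes with ACs, 0 to 2 with NACs and 0 to 4 untreated. For ACs against NACs in HDAC3 KO it ran from 0 to 3, and for NACs against untreated from 0 to 2 in either genotype. In each interaction it ran from 0 to 1. Over the same fits the calls over all genes ran from 0 to 1693 between genotypes with ACs. With NACs they ran from 0 to 3121, and untreated from 0 to 5887, where 12101 genes were tested with all libraries. For ACs against NACs in HDAC3 KO they ran from 0 to 3013. NACs against untreated had 21 to 4232 in WT and 0 to 4441 in HDAC3 KO. The interactions had 0 to 826 with ACs or NACs and 0 to 1100 with ACs or untreated. Over all genes the settings other than leaving out a library called 373 to 1373 between genotypes with ACs (461 as reported), 0 to 575 with NACs (103), 0 to 3314 untreated (1404), 252 to 1430 for ACs against NACs in HDAC3 KO (904), and 0 to 1784 and 0 to 2309 for NACs against untreated in WT (1015) and HDAC3 KO (794).

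Signs turned for some values that had not passed. Between genotypes with NACs, Mertk was -0.24 with the GC offset and -0.27 with the block added. Untreated, Mertk was 0.0057 with DESeq2 size factors, 0.0087 with the Wald test and 0.17 with the offset, and Gas6 was -0.32 with the offset and -0.59 with the block added. Gas6 with ACs against NACs in WT was 0.0886 with the offset and block. With 1 library left out, values between genotypes ran from -0.99 to 0.0733 for Tyro3 with ACs, and with NACs from -0.0662 to 0.26 for Mertk, -0.18 to 0.56 for Axl and -0.13 to 0.60 for Gas6. Untreated they ran from -1.41 to 0.20 for Mertk and -0.21 to 1.25 for Gas6. For ACs against NACs in WT they ran from -0.0035 to 0.76 for Axl, -0.57 to 0.16 for Gas6, -0.60 to 0.0057 for Vav1 and -0.54 to 0.0019 for Rxra, and in HDAC3 KO from -0.40 to 0.18 for Mertk. The Mertk interaction with ACs or untreated ran from -1.71 to 0.0724. DESeq2 size factors moved the median of all genes from 0.06 to 0.19 between genotypes untreated and from -0.03 to -0.21 for NACs against untreated in HDAC3 KO. Tyro3 rests on 2 to 27 counts and Timd4 on 0 to 4, so their values are the least precise.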
